A study of Homo sapiens with 16 samples.

Results

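The genes described here encode the machinery that copies DNA in S phase. They are 42 genes chosen by symbol for their textbook roles, with earlier results of these data known. All 42 were found among the 59428 genes of the count table. Of the whole table, 29329 genes had at least 1 count in any library. Every replication gene had between 14 and 2436 counts in each library and entered every test. Their positions in hg38 lie on 19 chromosomes.

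Chromosomal replication starts with licensing in G1 phase. The origin recognition complex, CDC6 and CDT1 load the MCM2 to MCM7 helicase onto DNA, and geminin (GMNN) blocks reloading once S phase has begun. CDC45 and the GINS complex turn the loaded helicase into an active one, the RFC complex places the PCNA clamp on primed DNA, and the polymerases copy the strands while RPA covers single-stranded DNA. Ribonucleotide reductase, thymidylate synthase and thymidine kinase supply the nucleotides. Many of these genes are transcribed at the G1/S boundary under the control of E2F factors, so their RNA is widely used as a sign of proliferation. Olaparib inhibits the enzymes PARP1 and PARP2 and traps them on DNA, which hinders replication forks and is most toxic to cells that lack BRCA1 or BRCA2 function.

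RNA was measured by 3' mRNA sequencing in 2 established lines of serous ovarian carcinoma. OVCAR3 carries wild-type BRCA1 and UWB1.289 a mutated BRCA1. OVCAR3 received 7.5 µM olaparib and UWB1.289 received 3.5 µM, each for 96 h, with the solvent DMSO alone for the same time as control, which gave 4 groups of 4 libraries. The study compared olaparib with DMSO in each line to see how the drug changes expression with and without a BRCA1 mutation. Each line is a single cell line grown in its own medium and given its own dose, so line, BRCA1 status, medium and dose cannot be told apart in any difference between the lines. The labels number the replicates without saying that they are separate cultures, so p-values measure the spread between these libraries, which may be technical in part.

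The libraries held between 5599571 and 7730228 counts, and the first principal component, with 82.9% of the variance, separated the lines. PARP1, PARP2 and BRCA1 RNA did not pass the test with olaparib in either line. BRCA1 RNA was lower in UWB1.289 than in OVCAR3 with DMSO (-0.84 ± 0.12 on the log2 scale, adjusted p = 1.25e-07). In that comparison 1 of PARP1 and PARP2 was higher in UWB1.289, and 79.9% of all genes tested differed. Olaparib acts on the PARP proteins, so these levels are no check of the treatment. Of 8 markers of epithelial ovarian carcinoma, EPCAM, KRT8, KRT18, KRT19, CDH1, PAX8 and MUC16 had counts in all libraries, while WT1 had 0 counts in the 4 DMSO libraries of UWB1.289 and at most 3 with olaparib. Among 8 markers of other cells, CD3E (T cells) and DCN (fibroblasts) had at most 1 count in any library. The summed level over all 8 markers was between 23.9 and 73.1 CPM (counts scaled to the size of the library) in every DMSO library.

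Values below are CPM after TMM normalization, given per library in the order of replicates 1 to 4, and serve to compare a gene between libraries. Changes are log2 fold changes ± standard error from edgeR's quasi-likelihood test with 4 libraries per group. A gene passed at an adjusted p below 0.1, with the Benjamini-Hochberg adjustment over all genes tested.

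For 36 of the 42 replication genes, a RefSeq promoter sequence was found by gene symbol (GRCh38.p14, 250 bases before to 50 after the start, 48 entries in all). The start is that of the promoter entry, which can lie away from the start of the annotated gene. GINS4, MCM4, MCM5, POLD3, RPA2 and RPA3 had no entry. The promoters were searched on both strands for the E2F words TTTCCCGC, TTTGGCGC, TTTCGCGC and TTTGCCGC, which may overlap each other, and for CCAAT, the word bound by NF-Y. At least 1 E2F word stood in 20 of the 36 genes (55.6%), against 6.92% of the 9115 genes with a promoter that were tested in both olaparib comparisons and 3.99% of all 27305 genes with a promoter. CCAAT stood in 63.9% of the replication genes and in 43.8% and 39.7% of those 2 sets. A word is a match of letters and not a measured binding site. An E2F word stood in 9 of the 18 genes with a promoter that were higher with olaparib in OVCAR3, in 7 of the 9 that were lower in UWB1.289 and in 6 of the 12 that passed in neither line.

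The promoters of CLSPN, CDT1, MCM3 and RFC3 are printed as those of the 4 genes with an E2F word that had the smallest adjusted p-values under olaparib in at least 1 line. Capitals mark the E2F words, and each sequence runs 5′ to 3′ on the strand of its gene. In CLSPN (chr1:35769929-35770228, minus strand) the word begins 5 bases before the start, and in CDT1 (chr16:88803539-88803838, plus strand) it begins 35 bases before. MCM3 (chr6:52284693-52284992, minus strand) has 2 words, which begin 174 and 4 bases before the start, and in RFC3 (chr13:33817899-33818198, plus strand) the word begins 55 bases before. The word reads TTTCCCGC on the opposite strand in CLSPN, CDT1 and RFC3.
CLSPN: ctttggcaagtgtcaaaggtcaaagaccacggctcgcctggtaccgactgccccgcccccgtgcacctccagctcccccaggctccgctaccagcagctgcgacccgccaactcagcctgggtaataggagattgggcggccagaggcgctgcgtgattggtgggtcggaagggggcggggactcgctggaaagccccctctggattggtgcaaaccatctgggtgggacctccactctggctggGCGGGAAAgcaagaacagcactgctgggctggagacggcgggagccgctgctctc
CDT1: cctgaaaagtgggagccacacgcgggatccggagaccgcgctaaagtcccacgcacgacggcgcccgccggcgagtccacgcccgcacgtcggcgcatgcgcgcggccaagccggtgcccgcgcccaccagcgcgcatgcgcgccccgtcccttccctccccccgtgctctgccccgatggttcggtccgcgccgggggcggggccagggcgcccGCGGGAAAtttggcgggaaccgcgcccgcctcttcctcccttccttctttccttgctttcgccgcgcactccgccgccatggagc
MCM3: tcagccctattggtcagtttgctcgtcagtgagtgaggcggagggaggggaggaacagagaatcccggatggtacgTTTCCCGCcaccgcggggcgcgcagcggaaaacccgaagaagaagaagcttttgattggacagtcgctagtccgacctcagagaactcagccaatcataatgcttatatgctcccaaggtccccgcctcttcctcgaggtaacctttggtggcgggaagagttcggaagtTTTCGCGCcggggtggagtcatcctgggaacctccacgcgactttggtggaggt
RFC3: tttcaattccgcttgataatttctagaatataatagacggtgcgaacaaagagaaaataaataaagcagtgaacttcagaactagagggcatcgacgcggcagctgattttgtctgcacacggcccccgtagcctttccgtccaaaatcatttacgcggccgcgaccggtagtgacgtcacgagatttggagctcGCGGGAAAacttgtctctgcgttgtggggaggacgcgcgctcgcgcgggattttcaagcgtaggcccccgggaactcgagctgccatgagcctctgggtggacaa

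In OVCAR3, olaparib raised the RNA of 20 of the 42 replication genes and lowered none. At an unadjusted p below 0.05 in edgeR 0 were lower, and DESeq2 also called 0 lower. Of the 13031 genes tested, 15.5% were higher, 2083 genes were lower and 31.5% changed in either direction, and the share of replication genes that passed was 47.6%. Counting those that did not pass, 37 of the 42 had a positive log2 fold change and 5 a negative one. The median was 0.25, against -0.01 over all genes tested. The increases were small, from 0.21 ± 0.08 for RRM1 to 0.75 ± 0.14 for ORC6, and no gene reached the study's stricter limit of more than 2-fold at a mean normalized count above 10 (5.23% of all genes tested did). The 4 olaparib libraries lay wholly above the 4 DMSO libraries in 18 genes (12.4% of all genes tested) and wholly below them in none. As a share of all counts, the 42 genes together rose from between 0.252% and 0.276% per DMSO library to between 0.305% and 0.330% per olaparib library, and these ranges do not overlap. In a bulk sample, more cells in S phase and more RNA per cell cannot be told apart.

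Licensing genes held the 2 largest increases in OVCAR3, and 7 of 11 were higher (15.5% of all genes tested were). ORC6, a subunit of the origin recognition complex, had 19.3, 23.6, 20.7 and 24.6 CPM with DMSO and 35.8, 44.8, 40.0 and 27.3 CPM with olaparib, an increase of 0.75 ± 0.14 (adjusted p = 0.000559, 1.68-fold). The groups do not overlap, although the olaparib library of replicate 4 lay close to the highest DMSO value. CDT1, the loader that brings the helicase to the origin, had 17.8, 16.6, 18.9 and 18.9 CPM with DMSO and 29.6, 27.6, 29.4 and 31.4 CPM with olaparib, an increase of 0.71 ± 0.12 (adjusted p = 0.000135). All 4 olaparib libraries were well above the DMSO libraries, which differed little among themselves. CDC6, the loading ATPase, had 28.9, 37.0, 32.6 and 33.5 CPM with DMSO and 43.4, 33.9, 48.0 and 42.4 CPM with olaparib, an increase of 0.35 ± 0.12 (adjusted p = 0.0352). Its groups overlap, since olaparib replicate 2 fell inside the DMSO range, and it did not pass without DMSO replicate 1 or olaparib replicate 3 (adjusted p at most 0.115). ORC1, the largest origin recognition subunit, rose by 0.46 ± 0.17 and GMNN by 0.33 ± 0.09. Of the origin recognition subunits outside the 42 genes, ORC2 had between 29.2 and 33.7 CPM with DMSO and between 21.1 and 28.7 with olaparib. ORC4 had between 27.7 and 29.5 CPM with DMSO and between 19.5 and 25.0 CPM with olaparib. Both lay wholly lower with olaparib, as did 1728 of the 13031 genes tested. This compares ranges only, and ORC2 and ORC4 did not both pass the test. ORC3 (means of 14.1 and 16.9 CPM with DMSO and olaparib) and ORC5 (21.3 and 19.6 CPM) overlapped.

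The helicase subunits did not move as one in OVCAR3. MCM3 had 98.4, 94.1, 90.7 and 94.6 CPM with DMSO and 123, 122, 124 and 126 CPM with olaparib, an increase of 0.39 ± 0.07 (adjusted p = 0.000502) with very little spread within either group. MCM4 rose by 0.23 ± 0.09 (adjusted p = 0.0521) but did not pass without DMSO replicate 1, 3 or 4 (adjusted p at most 0.157). The other 4 subunits did not pass. MCM2 had 176, 185, 168 and 168 CPM with DMSO and 179, 184, 183 and 121 CPM with olaparib (-0.06 ± 0.11, adjusted p = 0.719). Its olaparib replicate 4 stood far below the other libraries, and without it the value is 0.06. MCM5, MCM6 and MCM7 had values of -0.15, -0.11 and 0.00.

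Among the genes that activate the helicase, 4 of 6 were higher in OVCAR3 (15.5% of all genes tested were). GINS4, a subunit of the GINS complex, had 21.4, 25.9, 25.6 and 26.7 CPM with DMSO and 38.6, 36.0, 35.5 and 34.2 CPM with olaparib, an increase of 0.54 ± 0.11 (adjusted p = 0.00133). All olaparib libraries exceeded all DMSO libraries. MCM10, which helps to start the helicase, had 45.8, 44.7, 40.0 and 35.5 and 53.0, 61.5, 52.3 and 67.8 CPM with DMSO and olaparib, an increase of 0.51 ± 0.11 (adjusted p = 0.00205) without overlap. GINS3 rose by 0.47 ± 0.16 and CDC45 by 0.45 ± 0.12, though GINS3 did not pass without DMSO replicate 1 or olaparib replicate 2 (adjusted p at most 0.111). GINS1 (0.22) and GINS2 (0.07) did not pass.

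Of the clamp and its loader, RFC1, RFC2 and RFC3 rose in OVCAR3, while PCNA, RFC4 and RFC5 did not pass. RFC3 had 46.0, 55.5, 52.6 and 54.5 CPM with DMSO and 61.4, 83.6, 67.9 and 100.3 CPM with olaparib, an increase of 0.59 ± 0.12 (adjusted p = 0.00154). The groups do not overlap, but the olaparib libraries spread widely and replicate 4 was the highest. PCNA, the sliding clamp, had 30.7, 50.8, 44.2 and 43.2 CPM with DMSO and 42.2, 45.8, 53.4 and 38.3 CPM with olaparib (0.09 ± 0.13, adjusted p = 0.669), so its groups overlap almost fully. RFC1 rose by 0.26 ± 0.07 and RFC2 by 0.31 ± 0.13 (adjusted p = 0.0835). RFC2 did not pass without DMSO replicate 2, 3 or 4 or olaparib replicate 2 or 4, nor with DESeq2 (adjusted p at most 0.216). Of 6 polymerase and primase genes, only POLE passed (31.5% of all genes tested did). POLE, the catalytic subunit of the leading-strand polymerase, had 20.6, 16.9, 19.1 and 21.9 CPM with DMSO and 30.7, 27.4, 28.8 and 26.9 CPM with olaparib, an increase of 0.54 ± 0.12 (adjusted p = 0.00272) without overlap. Its partner POLE2 had a value of similar size with more spread (0.49 ± 0.22, adjusted p = 0.107). PRIM1, POLA2, POLD1 and POLD3 had values between 0.08 and 0.29. Neither FEN1 (0.15) nor LIG1 (0.22), which finish the lagging strand, passed, and none of the RPA genes did, with RPA3 at -0.21, RPA1 at -0.05 and RPA2 at 0.11.

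Nucleotide supply and the fork protection genes completed the increases. RRM2, the S-phase subunit of ribonucleotide reductase, had 153, 179.7, 166 and 157 CPM with DMSO and 194, 230.1, 249 and 218 CPM with olaparib, an increase of 0.45 ± 0.08 (adjusted p = 0.000529). Every olaparib library lay above the DMSO range. RRM1, the large subunit, rose by 0.21 ± 0.08 and TK1, thymidine kinase, by 0.28 ± 0.09, whereas TYMS, thymidylate synthase, did not pass (0.20 ± 0.10, adjusted p = 0.157). RRM1 did not pass without DMSO replicate 3 or 4 (adjusted p at most 0.163). CLSPN encodes claspin, which travels with the fork and carries the checkpoint signal from ATR to CHK1. It had 129, 127, 120.0 and 122 CPM with DMSO and 201, 196, 199 and 172 CPM with olaparib, an increase of 0.63 ± 0.08 and the smallest adjusted p of the 42 genes in OVCAR3 (4.38e-06). The lowest olaparib library, replicate 4, was still far above the highest DMSO library. TIPIN, of the fork protection complex, rose by 0.44 ± 0.16 but did not pass without DMSO replicate 1 or olaparib replicate 3 (adjusted p at most 0.155). The histone RNA binder SLBP (0.08) did not pass. Nor did UHRF1, which couples DNA methylation to the fork and which had the lowest counts, with 4.12, 5.41, 3.18 and 4.72 CPM with DMSO and 5.11, 4.67, 5.54 and 4.24 CPM with olaparib (0.18 ± 0.24, adjusted p = 0.657).

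**Figure D1:**
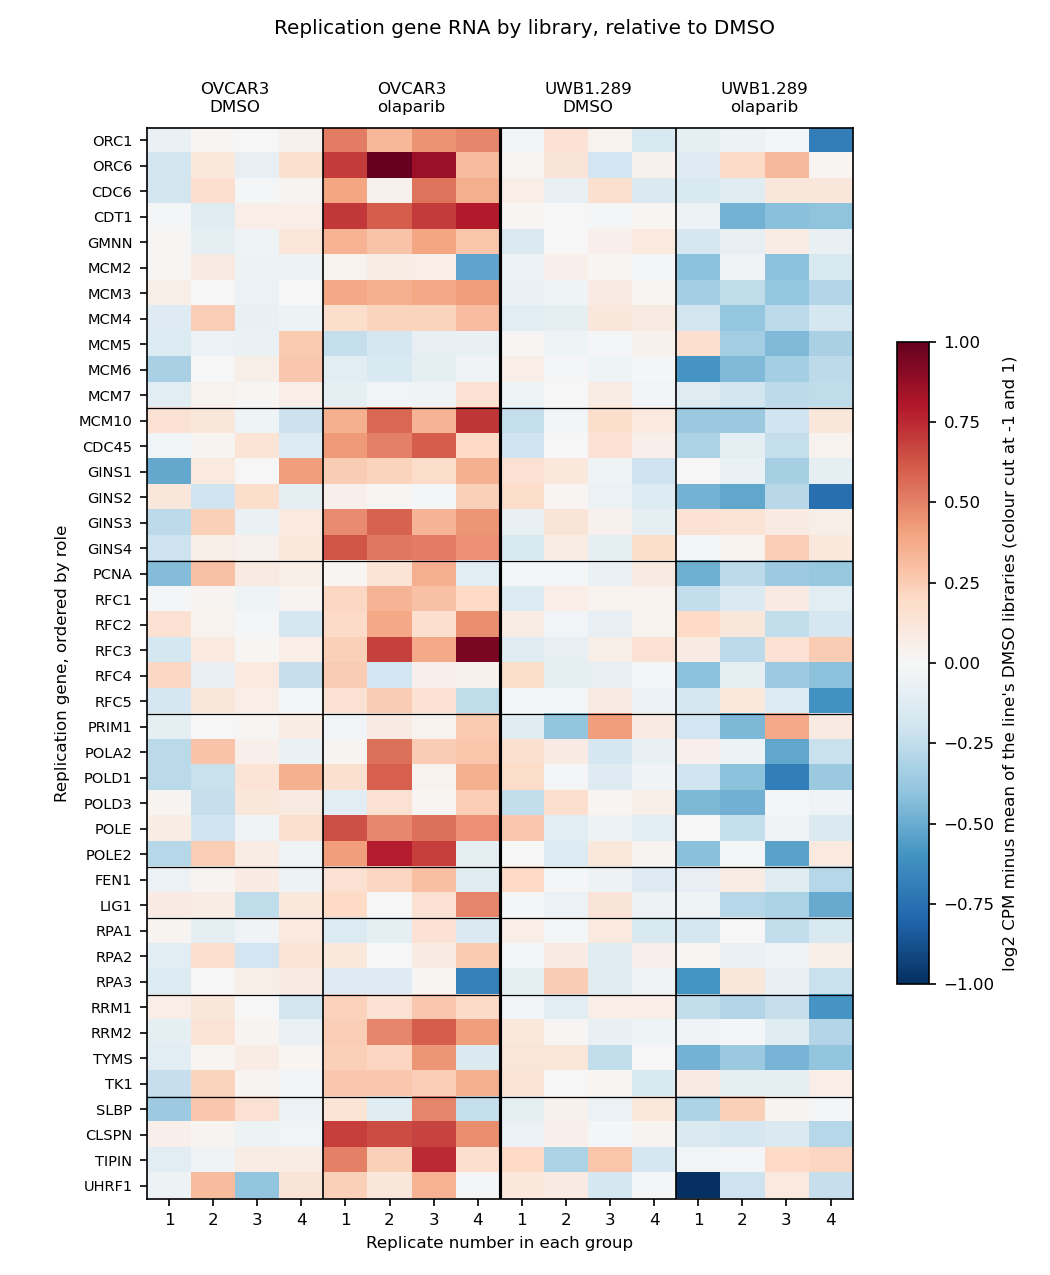
Heat map of the 42 replication genes (rows, ordered by role, with lines between roles) in the 16 libraries (columns), coloured by log2 CPM minus the mean of the DMSO libraries of the same line, with colours cut at -1 and 1. Per library, between 30 and 38 genes were above the DMSO mean with olaparib in OVCAR3, and between 8 and 12 were above it with olaparib in UWB1.289.

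In UWB1.289, olaparib lowered the RNA of 10 of the 42 replication genes and raised none. Neither edgeR at an unadjusted p below 0.05 nor DESeq2 called any higher (0 genes each). The lower genes were CDT1, MCM3, MCM4, MCM6, MCM7, GINS2, PCNA, RFC4, RRM1 and TYMS. Among the 12748 genes tested in this line, 6.10% were lower, 990 genes were higher and 13.9% changed in either direction. A negative log2 fold change was found for 37 of the 42 genes and a positive one for 5, with a median of -0.18 against -0.00 over all genes tested. No replication gene passed the stricter limit of more than 2-fold (2.21% of all genes tested did). The olaparib libraries lay wholly below the DMSO libraries in 12 genes (6.98% of all genes tested) and wholly above them in none. The 42 genes together made up between 0.307% and 0.312% of the counts with DMSO and between 0.272% and 0.284% with olaparib, again without overlap.

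Licensing genes held 5 of the 10 decreases in UWB1.289, namely CDT1 and 4 of the 6 helicase subunits (6.10% of all genes tested were lower). CDT1 had 76.4, 75.6, 74.7 and 76.7 CPM with DMSO and 73.3, 54.5, 56.8 and 57.2 CPM with olaparib, a change of -0.33 ± 0.10 (adjusted p = 0.0404). Replicate 1 with olaparib stayed close to the DMSO libraries, while the other 3 were clearly lower, and the gene did not pass without olaparib replicate 3 or 4 (adjusted p at most 0.118). MCM6 had 49.2, 46.4, 45.4 and 46.4 CPM with DMSO and 31.0, 34.4, 37.0 and 39.0 CPM with olaparib, a change of -0.40 ± 0.10 (adjusted p = 0.0157), with no overlap. MCM3 had 87.2, 88.7, 96.7 and 92.6 CPM with DMSO and 72.0, 76.3, 69.8 and 74.6 CPM with olaparib, a change of -0.32 ± 0.09 (adjusted p = 0.0197). Its olaparib libraries were likewise all below the DMSO libraries. MCM4 fell by 0.25 ± 0.08 and MCM7 by 0.20 ± 0.08, the latter just inside the threshold (adjusted p = 0.0998). MCM4 did not pass without DMSO replicate 3 or 4 or olaparib replicate 2 or 3, and MCM7 did not pass without any one of the 4 DMSO libraries or olaparib replicate 3 or 4 (adjusted p at most 0.174 and 0.228). MCM2 had 98.5, 106, 104 and 102 CPM with DMSO and 77.1, 99.9, 77.0 and 91.9 CPM with olaparib (-0.24 ± 0.09, adjusted p = 0.116). Olaparib replicate 2 of MCM2 fell within the DMSO range, and the gene did not pass, nor did MCM5 (-0.22). CDC6 had 44.2, 40.1, 47.3 and 38.2 and 38.05, 38.9, 45.8 and 45.8 CPM with DMSO and olaparib (-0.01 ± 0.11, adjusted p = 0.983), and the groups overlap almost fully. The origin recognition genes ORC1 (-0.19) and ORC6 (0.11) and the licensing inhibitor GMNN (-0.06) did not pass.

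GINS2, a GINS subunit, had the largest decrease of the 10. It had 36.2, 32.3, 30.6 and 29.0 CPM with DMSO and 22.9, 22.2, 26.2 and 18.8 CPM with olaparib, a change of -0.50 ± 0.13 (adjusted p = 0.0121), and the groups do not overlap. The other 5 helicase activation genes did not pass, with values from -0.20 for MCM10 to 0.11 for GINS3. PCNA had 102, 103, 99.1 and 110.3 CPM with DMSO and 74.0, 86.3, 80.3 and 79.6 CPM with olaparib, a change of -0.37 ± 0.09 (adjusted p = 0.00661). The highest olaparib library of PCNA lay below the lowest DMSO library. RFC4, a small clamp loader subunit, fell by 0.32 ± 0.09 (adjusted p = 0.0355) but did not pass without DMSO replicate 1 or olaparib replicate 4 (adjusted p at most 0.144), while RFC1, RFC2, RFC3 and RFC5 had values of -0.10, -0.01, 0.07 and -0.18 and did not pass. None of the polymerase, primase, ligation and RPA genes passed. LIG1 (-0.28 ± 0.11, adjusted p = 0.117) and POLD1, the catalytic subunit of polymerase delta (-0.42 ± 0.16, adjusted p = 0.117), had the smallest adjusted p-values among them. The olaparib libraries of POLD1 were all below its DMSO libraries, while those of LIG1 overlapped.

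TYMS had the smallest adjusted p of the 42 genes in UWB1.289. It had 162, 163, 126 and 149 CPM with DMSO and 107, 115, 108 and 114 CPM with olaparib, a change of -0.43 ± 0.09 (adjusted p = 0.00296), and all olaparib libraries were below all DMSO libraries. RRM1 had 199.6, 188, 213 and 213 CPM with DMSO and 172, 166, 173 and 135 CPM with olaparib, a change of -0.33 ± 0.09 (adjusted p = 0.0172), with replicate 4 the lowest of the olaparib libraries. Its partner RRM2 had 117, 109.9, 104 and 106 and 106, 108, 100.3 and 88.9 CPM with DMSO and olaparib (-0.11 ± 0.09, adjusted p = 0.49) and did not pass. TK1 (-0.01), CLSPN (-0.18) and TIPIN (0.08) did not pass either. UHRF1 had 6.47, 6.33, 5.26 and 5.93 and 2.31, 5.15, 6.40 and 5.04 CPM with DMSO and olaparib (-0.34 ± 0.26, adjusted p = 0.478), and olaparib replicate 1 was far below the rest.

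**Figure D2:**
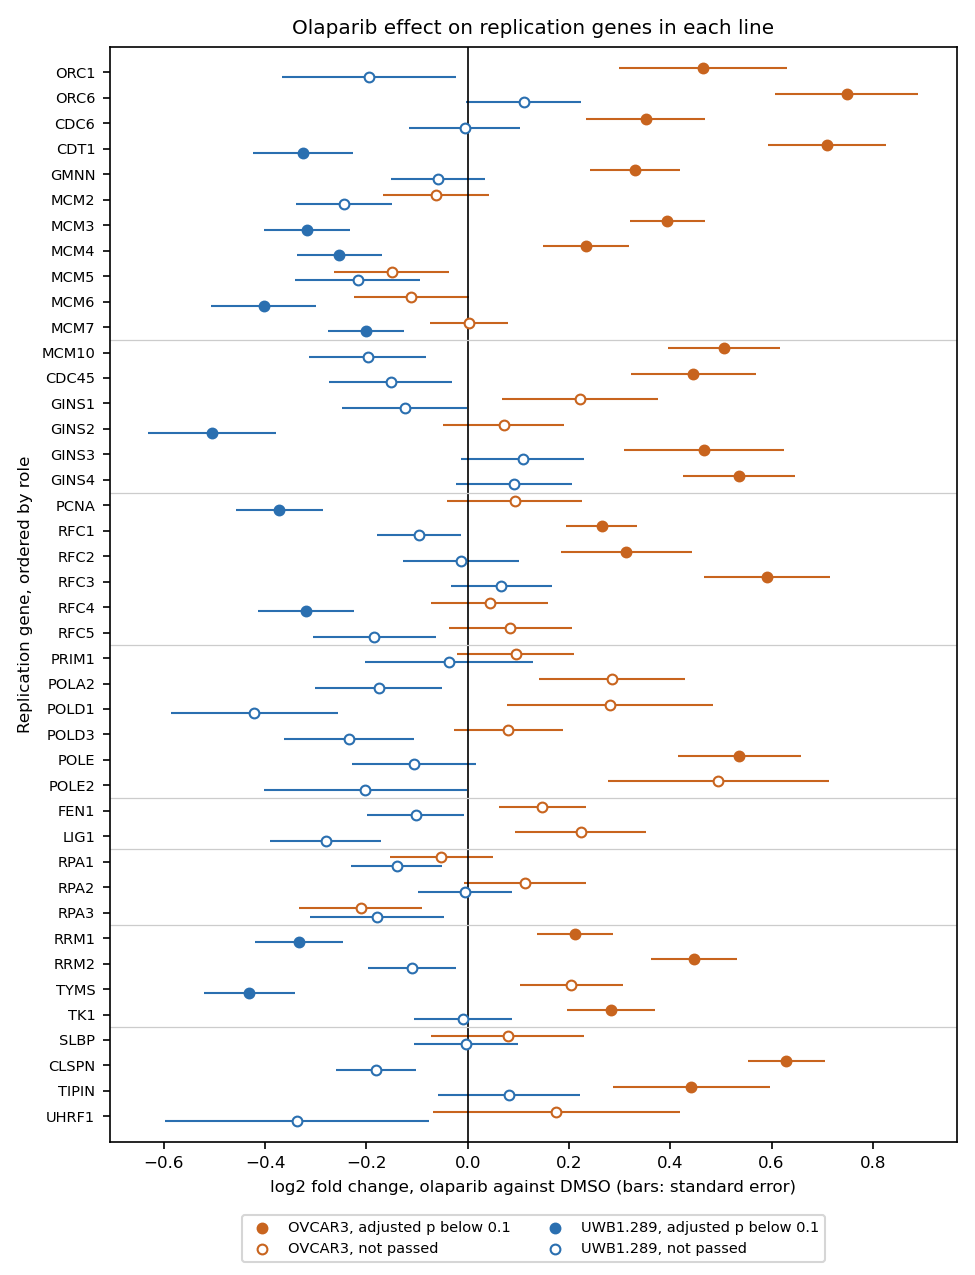
Log2 fold change of olaparib against DMSO for each of the 42 replication genes in OVCAR3 and UWB1.289, with bars for the standard error and filled points for an adjusted p below 0.1. In OVCAR3 20 filled points lie above 0 and in UWB1.289 10 lie below 0.

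Of the 42 genes, 4 passed in both lines, and these moved in opposite directions. Joint counts over both lines were not made for all genes, so whether those given here are unusual was not tested. CDT1, MCM3, MCM4 and RRM1 were higher with olaparib in OVCAR3 and lower in UWB1.289. A further 16 genes were higher in OVCAR3 without passing in UWB1.289, 6 were lower in UWB1.289 without passing in OVCAR3, and 16 passed in neither line. Whether the lines differed in their response was therefore tested directly, as an interaction over all 16 libraries, which are the same libraries as in the comparisons above. It passed for 19 of the 42 genes, each with a lower effect in UWB1.289 than in OVCAR3, while 5.83% of the 14243 genes tested had a lower effect, 725 genes a higher one and 10.9% a difference in either direction. The difference was negative for 41 of the 42 genes. RPA3 was the exception (0.03 ± 0.19, adjusted p = 0.966). The median difference was -0.41, against 0.01 over all genes tested.

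CDT1 had the largest difference (-1.03 ± 0.15, adjusted p = 1.44e-05), and it alone of the 42 genes also passed the stricter limit of more than 2-fold (3.66% of all genes tested did). CLSPN followed (-0.81 ± 0.11, adjusted p = 4.63e-06). Its UWB1.289 libraries had 119, 128, 122 and 126 CPM with DMSO and 112, 110.4, 112 and 102 CPM with olaparib, so the difference came with a large rise in OVCAR3 and a smaller value in the other direction in UWB1.289. MCM3 differed by -0.71 ± 0.11 (adjusted p = 3.15e-05) and MCM10 by -0.70 ± 0.17 (adjusted p = 0.00752). In UWB1.289, MCM10 had 59.1, 68.6, 79.0 and 74.7 CPM with DMSO and 54.0, 54.0, 61.0 and 75.7 CPM with olaparib, with overlap. ORC1, with low counts, had 7.25, 7.69, 7.66 and 7.87 CPM with DMSO and 11.0, 9.65, 10.5 and 10.8 CPM with olaparib in OVCAR3. In UWB1.289 it had 12.8, 14.5, 13.4 and 11.7 CPM with DMSO and 12.2, 12.6, 13.0 and 7.95 CPM with olaparib. Its difference of -0.66 ± 0.23 only just passed (adjusted p = 0.0873), and olaparib replicate 4 of UWB1.289 was well below the other 3. With most single libraries left out, ORC1 did not pass (adjusted p at most 0.160). POLE in UWB1.289 had 34.4, 26.3, 27.6 and 26.5 CPM with DMSO and 28.7, 24.1, 27.8 and 25.8 CPM with olaparib, with overlap, and its effect differed between the lines by -0.64 ± 0.17 (adjusted p = 0.0156).

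By role, the difference passed for 6 of 11 licensing, 4 of 6 helicase activation and 3 of 6 clamp and clamp loader genes. It passed for 3 of 4 nucleotide supply genes, 1 of 6 polymerase and primase genes and none of the 3 RPA genes. Of FEN1 and LIG1 only LIG1 passed, and of SLBP, CLSPN, TIPIN and UHRF1 only CLSPN. Of all genes tested, 10.9% passed in either direction, and roles of so few genes cannot be ranked by these counts. TYMS (-0.63 ± 0.14), RRM2 (-0.55 ± 0.12) and RRM1 (-0.54 ± 0.12) passed for nucleotide supply, while TK1 did not (-0.29 ± 0.13). The single-strand binding genes RPA1 (-0.09 ± 0.13) and RPA2 (-0.12 ± 0.14) had values near 0, as did SLBP (-0.08 ± 0.19) and MCM5 (-0.06 ± 0.17). PCNA (-0.46 ± 0.16, adjusted p = 0.08) passed close to the threshold. PCNA, GINS4, RFC3 and LIG1 each failed to pass when any one of several libraries was left out, with adjusted p at most 0.184, 0.180, 0.129 and 0.162, and GMNN when UWB1.289 DMSO replicate 4 or OVCAR3 DMSO replicate 3 was (at most 0.113). MCM2 (-0.18 ± 0.15, adjusted p = 0.547), CDC6 (-0.36 ± 0.16, adjusted p = 0.2) and UHRF1 (-0.51 ± 0.36, adjusted p = 0.452) did not pass. Across the 42 genes, the effects in the 2 lines had a Pearson correlation of 0.377 and a Spearman correlation of 0.386. These are correlations across genes, which are not independent replicates, and the lines share no library.

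**Figure D3:**
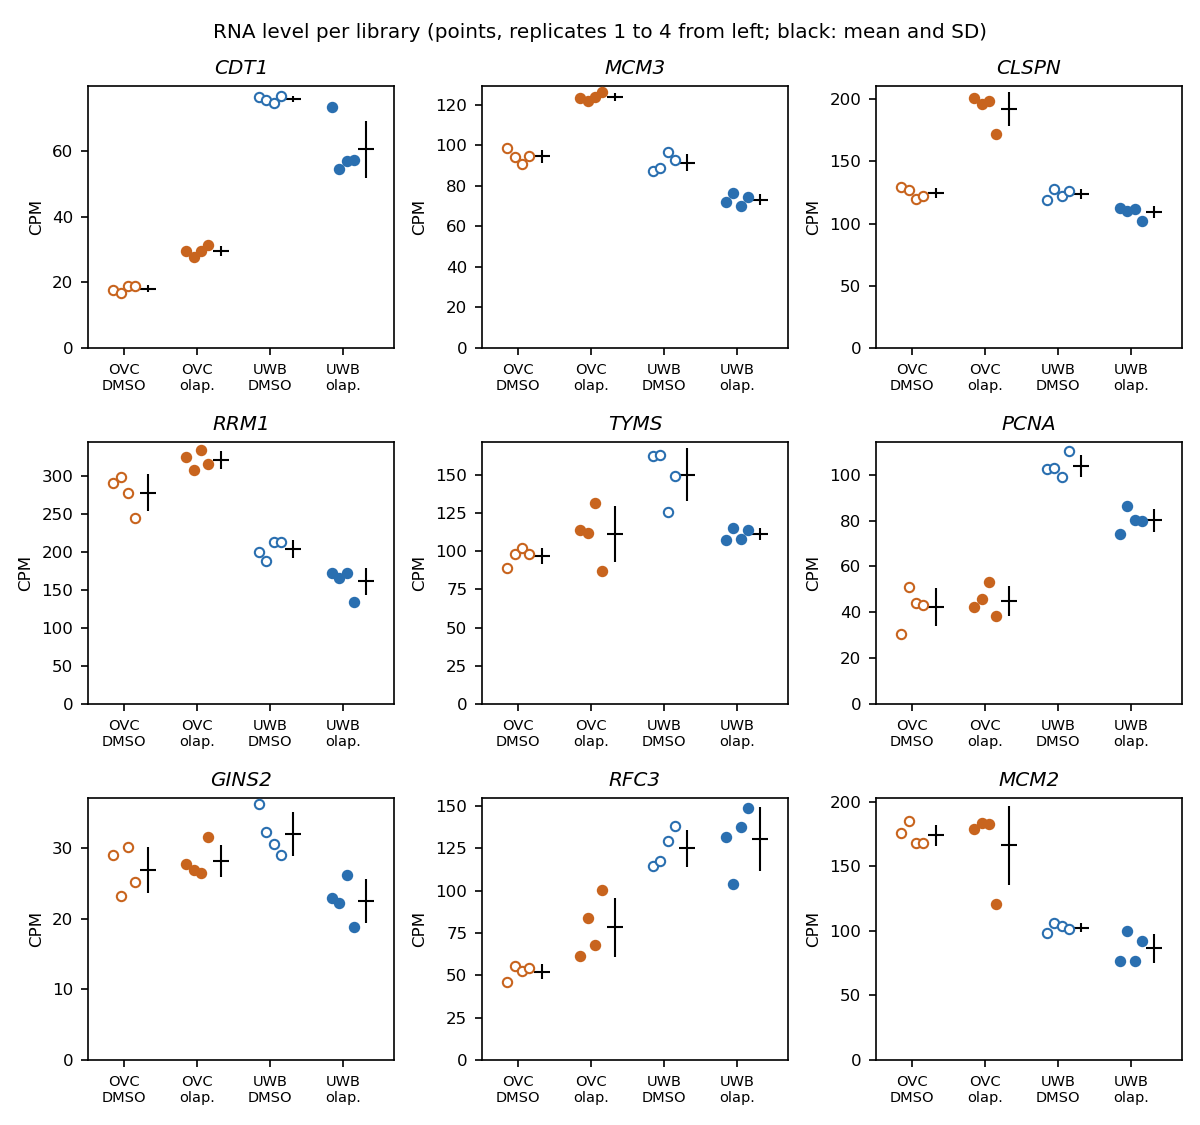
CPM per library for 9 replication genes, with open points for DMSO and filled points for olaparib, OVCAR3 (OVC) in orange and UWB1.289 (UWB) in blue, and the mean and SD of each group in black. The CDT1 libraries of OVCAR3 with olaparib lie between 27.6 and 31.4 CPM and those of UWB1.289 with DMSO between 74.7 and 76.7 CPM.

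With DMSO, most replication genes were higher in UWB1.289 than in OVCAR3. Of the 42 genes, 31 were higher in UWB1.289 and 6 lower. Differences between the lines were common in general, with 39.8% of the 13366 genes tested higher, 40.1% lower and 79.9% changed in either direction. The median over the 42 genes was 0.50, against -0.02 over all genes tested. The DMSO libraries of UWB1.289 lay wholly above those of OVCAR3 in 26 genes (34.5% of all genes tested) and wholly below in 5 (34.9%). With more than 2-fold, 8 genes were higher and 1 was lower, 9 in all (18.7%, 19.7% and 38.4% of all genes tested).

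CDT1 differed most, by 2.06 ± 0.10 (4.18-fold, adjusted p = 7.61e-18), with all 4 UWB1.289 libraries far above all OVCAR3 libraries in the values given above. All 6 clamp and clamp loader genes were higher in UWB1.289. For this and the other roles below, 39.8% of all genes tested were higher and 79.9% changed in either direction. PCNA was 2.45-fold higher (adjusted p = 2.38e-12), and RFC2 was higher by 1.02 ± 0.12 on the log2 scale. RFC3 had 115, 118, 129 and 138 CPM with DMSO in UWB1.289, a difference of 1.26 ± 0.09 (adjusted p = 7.26e-14), and 132, 104, 138 and 149 CPM with olaparib. RFC4 had 51.4, 42.3, 47.8 and 38.1 CPM in OVCAR3 and 138, 114, 115 and 121 CPM in UWB1.289, a difference of 1.44 ± 0.09 (adjusted p = 2.04e-14), and did not overlap. RPA1, the large RPA subunit, had 44.8, 41.2, 42.8 and 46.9 CPM in OVCAR3 and 106, 99.7, 108 and 90.6 CPM in UWB1.289, a difference of 1.19 ± 0.09 (adjusted p = 2.65e-13). RPA2 was higher by 1.06 ± 0.11, but RPA3 was lower by 0.33 ± 0.10, so the 3 subunits of 1 complex did not differ in the same direction. SLBP had 28.0, 43.5, 40.2 and 34.8 CPM in OVCAR3 and 89.0, 97.7, 90.6 and 102 CPM in UWB1.289, a difference of 1.37 ± 0.10 (adjusted p = 5.56e-13). All 6 helicase activation genes and 5 of the 6 polymerase and primase genes were also higher in UWB1.289, the exception being POLD3 (-0.17). The calls of POLE2 (0.38 ± 0.20, adjusted p = 0.0879) and GINS2 (0.25 ± 0.12, adjusted p = 0.0608) were lost under alternatives. POLE2 did not pass in 12 of 15, among them DESeq2 and leaving out UWB1.289 DMSO replicate 1, 3 or 4 or OVCAR3 DMSO replicate 1, 3 or 4 (adjusted p at most 0.225). GINS2 did not pass in 5 of 15, among them leaving out UWB1.289 DMSO replicate 1 or OVCAR3 DMSO replicate 2 or 4 (adjusted p at most 0.187).

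The lower genes in UWB1.289 were MCM2, FEN1, RPA3, RRM1, RRM2 and TK1, of which 3 supply nucleotides. TK1, named here after its values were seen because it alone was more than 2-fold lower, had 113, 155, 136 and 131 CPM in OVCAR3 and 65.4, 59.3, 60.4 and 53.6 CPM in UWB1.289 (-1.17 ± 0.09, adjusted p = 1.40e-12). MCM2 was lower by 0.77 ± 0.07 (adjusted p = 8.60e-11), FEN1 by 0.71 ± 0.08, RRM2 by 0.59 ± 0.08 (adjusted p = 4.92e-08) and RRM1 by 0.45 ± 0.07. The other helicase subunits went differently, with MCM4 (0.39 ± 0.08) and MCM7 (0.39 ± 0.07) higher and MCM3 (-0.05), MCM5 (0.12) and MCM6 (0.05) not passing. CDC6 was higher in UWB1.289 by 0.36 ± 0.11 (adjusted p = 0.00344) and UHRF1 by 0.46 ± 0.24 (adjusted p = 0.0833). UHRF1 did not pass in 10 of 15 alternative settings, among them DESeq2 and leaving out UWB1.289 DMSO replicate 1, 2 or 4 or OVCAR3 DMSO replicate 1 or 3 (adjusted p at most 0.245). CLSPN, which rose with olaparib in OVCAR3, did not differ beyond its spread between the DMSO groups (-0.01 ± 0.07, adjusted p = 0.911). The median difference between the lines, with the sign of each gene kept, was smaller with olaparib. This does not mean that each gap narrowed, and the median was not tested. The gap of CLSPN widened, from mean levels of 124 CPM in both lines with DMSO. With olaparib its means were 192 CPM in OVCAR3 and 109 CPM in UWB1.289. With DMSO, 33 of the 42 genes had the higher mean in UWB1.289 and the median difference of mean log2 CPM was 0.49, and with olaparib these were 24 genes and 0.06. This line comparison uses the same DMSO libraries as the olaparib comparisons.

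**Figure D4:**
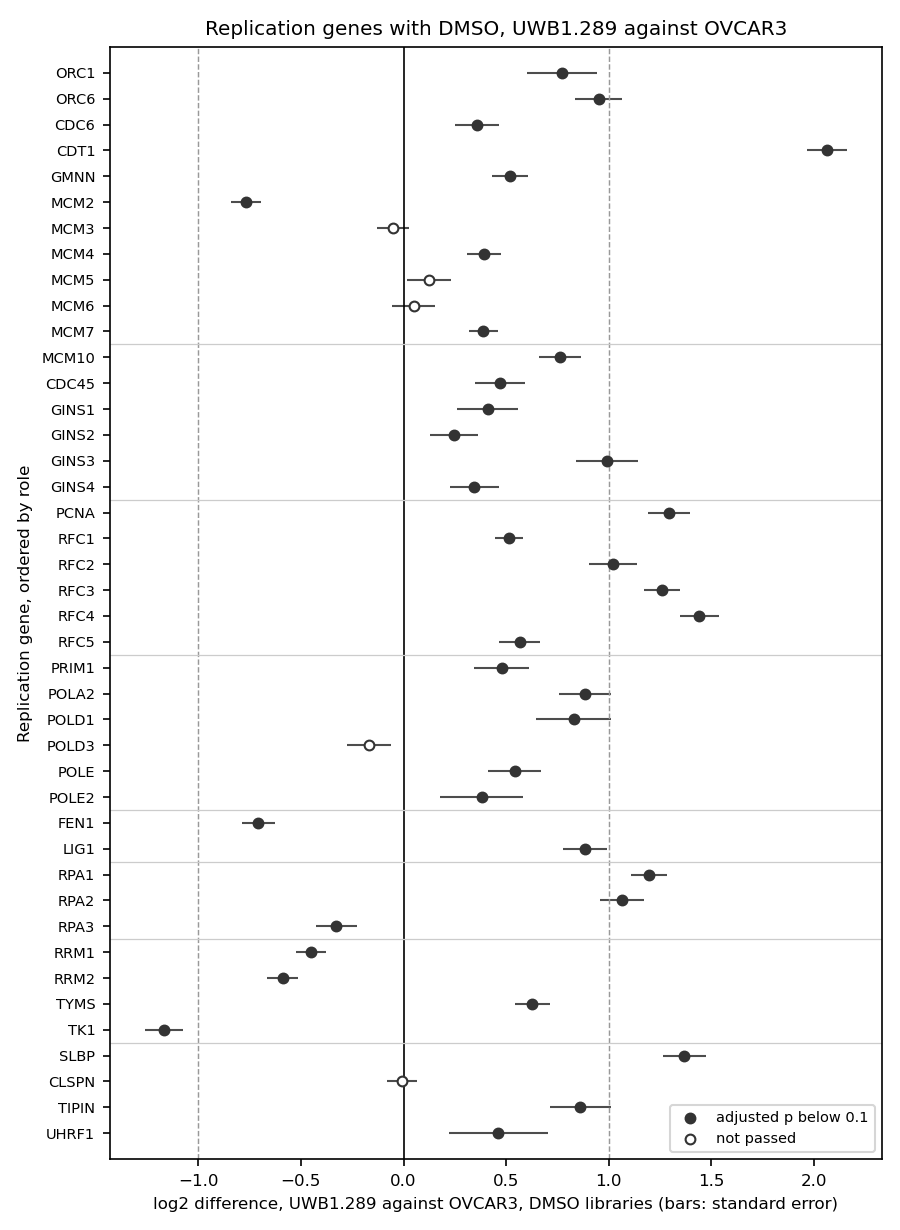
Log2 difference of UWB1.289 against OVCAR3 in the DMSO libraries for each of the 42 replication genes, with bars for the standard error, filled points for an adjusted p below 0.1 and dashed lines at 2-fold. CDT1 lies farthest to the right at 2.06 and TK1 farthest to the left at -1.17.

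Further genes of replication and of the cell cycle were counted from lists written for this work, with earlier results of these data known. Of 38 other replication genes tested in OVCAR3, 15 were higher and 3 lower with olaparib (47.4% passed, against 31.5% of all genes tested), with a median of 0.22. The histone chaperones ASF1B (0.59 ± 0.11) and CHAF1A (0.40 ± 0.09) rose. RRM2B (-0.89 ± 0.15), the ribonucleotide reductase subunit that p53 can induce, and DUT (-0.50 ± 0.09), which removes dUTP, fell, in contrast to RRM1 and RRM2. In UWB1.289, 1 of 39 was higher and 4 lower (12.8% passed, against 13.9% of all genes), with a median of -0.16. There SAMHD1, which degrades dNTPs, rose by 1.72 ± 0.12 (adjusted p = 3.33e-10), whereas RRM2B (-0.85 ± 0.17), DUT (-0.34 ± 0.09) and the helicase RECQL4 (-0.43 ± 0.10) fell. RRM2B and DUT thus fell in both lines, unlike any of the 42 genes. The difference between the lines passed for 12 of 39 (30.8%, against 10.9% of all genes), with SAMHD1 (1.31 ± 0.17) higher and the other 11 lower in UWB1.289, ASF1B (-0.78 ± 0.15), MCM8 (-0.74 ± 0.15) and CHAF1A (-0.64 ± 0.14) among them. With DMSO, 17 of 39 were higher in UWB1.289 and 13 lower (76.9% passed, against 79.9% of all genes), with ASF1B (1.60 ± 0.10) among the higher genes.

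Genes that control entry into S phase were mixed. In OVCAR3, 9 of 25 tested were higher and 2 lower with olaparib (31.5% of all genes passed), led by the cyclins CCNE1 (0.96 ± 0.09), CCND1 (1.08 ± 0.10) and CCND3 (0.93 ± 0.13) and by CDKN1A (1.44 ± 0.16), the CDK inhibitor p21. In UWB1.289, 3 of 26 were higher and 6 lower (34.6% passed, against 13.9% of all genes). CCND3 (0.75 ± 0.14), CDK6 (0.44 ± 0.10) and CDKN1A (1.07 ± 0.26) rose and CCND2 (-0.32 ± 0.08), among the 6 lower genes, fell. Values of the list ran from -1.10 to 1.07. By the study's limit of more than 2-fold, 1 gene was lower and 1 higher (2.21% of all genes passed it). The effect differed between the lines for 7 of 26 (26.9%, against 10.9% of all genes), with CCND1 (-1.34 ± 0.13), CCNE1 (-0.84 ± 0.13) and E2F2 (-1.63 ± 0.33) lower and CDK6 (0.67 ± 0.14) higher in UWB1.289. With DMSO, 8 of 26 were higher in UWB1.289 and 14 lower (84.6% passed, against 79.9% of all genes). Of 8 S-phase checkpoint genes tested in OVCAR3, CHEK1 (0.51 ± 0.13) and ATRIP (0.43 ± 0.13) rose and WEE1 (-0.28 ± 0.11) fell. The share that passed, 37.5%, was close to the 31.5% of all genes. In UWB1.289 none of 9 passed, against 13.9% of all genes. The difference passed for CHEK1 only (-0.54 ± 0.16, adjusted p = 0.0413), a share of 11.1% against 10.9% of all genes.

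Genes of G2 phase and mitosis were also higher with olaparib in OVCAR3. There, 11 of 20 passed as higher and 0 as lower (0 also at an unadjusted p below 0.05), against 31.5% of all genes in either direction, with a median of 0.25, led by CDK1 (0.51 ± 0.07), CCNB2 (0.41 ± 0.08), UBE2C (0.51 ± 0.10) and TOP2A (0.31 ± 0.07). In UWB1.289, 1 of 19 was higher (BIRC5, 0.27 ± 0.08) and none lower (5.26% passed, against 13.9% of all genes), with a median of 0.07. The difference between the lines passed for 2 of 20, CDK1 (-0.48 ± 0.11) and CCNB2 (-0.47 ± 0.12), a share close to the 10.9% of all genes. With DMSO, 9 of 19 were higher in UWB1.289 and 5 lower (73.7% passed, against 79.9% of all genes), PLK1 (2.28 ± 0.09) and AURKB (1.54 ± 0.07) having the smallest adjusted p-values. Epithelial markers fell with olaparib in OVCAR3, 6 of 8 being lower (75% passed, against 31.5% of all genes in either direction). Their summed level went from between 4485 and 4831 CPM to between 2667 and 2975 CPM per library. KRT18 (-1.02 ± 0.07) and KRT8 (-1.05 ± 0.10) fell most clearly. In UWB1.289 the sum was between 6724 and 7213 CPM with DMSO and between 5259.8 and 6373 CPM with olaparib. Of the 7 tested there, KRT18 (-0.40 ± 0.08) and KRT8 (-0.30 ± 0.10) fell and MUC16 (0.69 ± 0.17) rose, with a median of 0.06 (42.9% passed, against 13.9% of all genes). The summed level of the 8 markers of other cells was between 23.9 and 31.5 CPM with DMSO and between 33.5 and 40.0 CPM with olaparib in OVCAR3, where COL1A1 alone was tested and rose (0.57 ± 0.13). It was between 53.8 and 73.1 CPM with DMSO and between 40.4 and 49.1 CPM with olaparib in UWB1.289. There COL1A2 fell (-1.03 ± 0.13) and was the only 1 of the 4 tested to pass (25%, against 13.9% of all genes). The other 3, PTPRC (0.37 ± 0.24), COL1A1 (0.22 ± 0.27) and PECAM1 (0.50 ± 0.27), had positive values. Between the lines with DMSO, all 4 markers of other cells tested passed the limit of more than 2-fold (38.4% of all genes tested did). Of these, 3 were higher and 1 was lower in UWB1.289. The part of these shifts in the values of the replication genes was not tested.

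Some replication genes share their 3' end with another gene. Within the last 500 bases, 9 of the 42 overlap an exon on the opposite strand and 0 overlap one on the same strand. In 5 of the 9 the neighbour is in the count table, namely NINL for GINS1, GSE1 for GINS2, EIF4A2 for RFC4, WSB2 for RFC5 and ENOSF1 for TYMS. The strand setting of the counting is not given in the sources used here, so for these 5 the source of reads in the overlap is uncertain. In UWB1.289, where GINS2, RFC4 and TYMS were lower with olaparib, GSE1 had a log2 fold change of 0.03, EIF4A2 of -0.08 and ENOSF1 of -0.32, and none of these neighbours passed. In OVCAR3, where GINS2 and RFC4 did not pass, GSE1 (-0.29, adjusted p = 0.0136) and EIF4A2 (-0.37, adjusted p = 0.0140) fell with olaparib. With DMSO, EIF4A2 (1.03, adjusted p = 3.14e-14) and WSB2 (0.45) were higher in UWB1.289, as RFC4 and RFC5 were, whereas NINL (-1.17), GSE1 (-0.73) and ENOSF1 (-1.12) were lower, where GINS1, GINS2 and TYMS were higher. Pseudogenes named after 10 of the 42 genes had 0 or 1 count in all libraries together.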

How the data were processed

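The RNA of 16 libraries (4 groups of 4) was measured with the QuantSeq 3' mRNA kit. The authors deposited raw counts per gene, made by trimming single-end reads with BBDuk, aligning them to hg38 with STAR 2.7.9a and counting with featureCounts 2.0.0 on GENCODE release 38. The strand, multi-mapping and overlap settings are not given in the sources used here. QuantSeq reads the 3' end, so values are not corrected for length. The table gives symbols only, and positions were taken from GENCODE release 44.

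Counts were tested with edgeR 4.0.16 under R 4.3.3 (filterByExpr, TMM, quasi-likelihood F test, Benjamini-Hochberg over all genes tested, adjusted p below 0.1) on the libraries of each comparison. Standard errors were obtained from each log2 fold change and its F statistic (the absolute change over the root of F). The scripts were tested on simulated data. The fits across all genes also ran with DESeq2 1.42.0, its size factors, no filter, 0.05 as threshold, more than 2-fold, all 16 libraries, a replicate block and each library left out. No 2 libraries of a group held identical counts in 24 pairs, and the lowest chi-square per gene was 2.89. At 14 counts, the lowest of any replication gene, counting error is large.

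The 42 genes and the further lists were chosen with earlier results of these data known. Values per library are given for up to 6 genes per comparison that passed with the largest absolute log2 fold change, and for MCM2, CDC6, PCNA, RRM2 and UHRF1 in every comparison. Of each further list, at most 4 genes per comparison with the smallest adjusted p among those that passed are named. ORC2, ORC3, ORC4 and ORC5 in OVCAR3 were added after their values were seen.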

Additional observations from a re-analysis of the deposited data

Results flagged for a closer look

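One library stood apart from the other 3 of its group in 8 of 168 groups tested (42 genes in 4 groups), by Dixon's criterion, which chance meets in about 1 group in 20. In UWB1.289 with olaparib, replicate 4 was low for ORC1 (7.95 CPM, the others between 12.2 and 13.0), RRM1 (135 CPM, the others between 166 and 173) and CLSPN (102 CPM, the others between 110.4 and 112). In the same group, replicate 1 was high for CDT1 (73.3 CPM, the others between 54.5 and 57.2) and replicate 2 was high for RFC4 (114 CPM, the others between 91.4 and 94.4). MCM2 was low in OVCAR3 olaparib replicate 4 (121 CPM, the others between 179 and 184). LIG1 was low in OVCAR3 DMSO replicate 3 (20.8 CPM, the others between 26.2 and 26.7). RFC1 was low in UWB1.289 DMSO replicate 1 (284 CPM, the others between 320.1 and 328).

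The olaparib effect differed between the lines for 19 genes by the interaction test in edgeR, each with the lower effect in UWB1.289. In log2 units, the difference was -1.03 for CDT1, -0.66 for ORC1, -0.64 for ORC6, -0.39 for GMNN, -0.71 for MCM3 and -0.48 for MCM4 among licensing genes. For helicase activation it was -0.70 for MCM10, -0.60 for CDC45, -0.57 for GINS2 and -0.44 for GINS4. The remaining genes were PCNA (-0.46), RFC1 (-0.36), RFC3 (-0.52), POLE (-0.64), LIG1 (-0.50), RRM1 (-0.54), RRM2 (-0.55), TYMS (-0.63) and CLSPN (-0.81).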

How the results depend on the processing

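Counts of replication genes kept within 1.5 times their main value under DESeq2, DESeq2's size factors, no filter, a threshold of 0.05, all 16 libraries in 1 fit, the replicate block and each library left out. The study's limit of more than 2-fold was the exception. It left 0 changed and 0 higher in OVCAR3, 0 changed and 0 lower in UWB1.289, 9 changed (8 higher, 1 lower) between the lines with DMSO and 1 changed (1 lower) for the difference between the lines. With DESeq2 the counts were 18, 10, 35 and 20, against 20, 10, 37 and 19. Leaving out 1 library gave 16 to 22 higher genes in OVCAR3 (16 without DMSO replicate 1), 7 to 13 lower in UWB1.289, 34 to 37 changed between the lines and 14 to 20 for the difference. No gene that passed changed sign under these alternatives. Among genes that did not pass, leaving out 1 library gave -0.032 to 0.19 for PCNA in OVCAR3 (negative without DMSO replicate 1), -0.11 to 0.065 for MCM2 in OVCAR3 (positive without olaparib replicate 4) and -0.058 to 0.048 for CDC6 in UWB1.289 (positive without DMSO replicate 1 or 3 or olaparib replicate 1 or 2). The cause was not tested.

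The fit with the replicate number as a block gave 22 genes in OVCAR3, 13 in UWB1.289, 35 between the lines and 22 for the difference. Within each line, the deviations of samples of the same number had weak positive correlations in every pair. The correlation of their deviations over 11648 genes was 0.03 to 0.11 in OVCAR3, 0.09 to 0.14 in UWB1.289 and -0.00 to 0.03 between the DMSO groups. Not every sample correlated best with its own number. The numbers were not taken as pairs in the main test, and the block fit gives the counts with them as pairs. The calls of MCM7 and MCM4 in UWB1.289, RFC2 and MCM4 in OVCAR3, POLE2, UHRF1 and GINS2 between the lines with DMSO, and ORC1, GINS4, PCNA, LIG1 and RFC3 for the difference were lost under several alternatives. UHRF1 had the lowest counts of the 42 genes, with standard errors of 0.24 to 0.26 within the lines and between them with DMSO. For the difference of the olaparib effect it was 0.36.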
